A study of Sus scrofa with 14 samples.

Results

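The comparison described here sets the endometrium of estrogen-treated gilts against that of control gilts on day 15 of pseudopregnancy. It uses the 6 arrays whose labels give day 15, of 14 in all, 3 from estrogen-treated and 3 from control gilts, each array carrying RNA of a different animal. The arrays were chosen by their labels alone. Gilts are young female pigs. These were crossbred and cycling, 8 to 10 months old and housed in groups. At the onset of a second estrus, after a normal cycle, each was given either estrogen or corn oil, and the treatment was repeated 24 hours later. The control arrays are labelled as not treated with estrogen. Every uterus was flushed with 20 mL of saline before the endometrium, the lining of the uterus, was frozen. The estrogen compound, its dose and the way in which pseudopregnancy was set up are not given in the sources used here. The gilts of day 13, 4 per treatment, serve only to estimate the spread and to set the day 15 difference against that of day 13.

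Estrogen is the signal by which the pig conceptus announces itself to the mother: it turns the secretion of prostaglandin F from the uterine vein to the lumen, so that the corpora lutea live on. In pseudopregnancy the corpora lutea persist with no conceptus present. During the days examined, progesterone acts on the glands and the stroma, the luminal epithelium loses its own progesterone receptor, and the surface becomes ready for attachment. Estrogen given before its natural time is known to disturb the attachment surface and to cost pregnancies, and the submitters' design text speaks of an early endocrine disruption.

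No gene could be said to differ between estrogen and control endometrium at day 15. Among genes that are named on the array, those of antigen presentation, of the interferon response and of macrophages had higher means after estrogen, with medians of 0.67 (class II presentation), 0.58 (interferon gamma), 0.42 (type I interferon) and 0.56 (macrophage) on the log2 scale, against 0.05 over all 5785 named genes. Cell cycle genes had a median of 0.63, which was 0.21 without 1 estrogen gilt, replicate 2. These medians moved with single gilts and with RNA quality. Class II presentation stood at 0.24 without control replicate 3, and interferon gamma at 0.19 without estrogen replicate 3. With RNA quality as a covariate the medians of class II presentation, interferon gamma and macrophage genes were lower, at 0.34, 0.33 and 0.23. Those of type I interferon and cell cycle genes were higher, at 0.48 and 1.09. PIGR, the receptor that carries immunoglobulin A across the epithelium, was 2.34-fold higher. COL1A2, a chain of collagen type I, was at 0.552 of the control level. Genes known as targets of estrogen and progesterone had a median of -0.03. No gene passed the test over all probe sets, and the list medians were not tested.

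Over the 16754 probe sets bright enough to test, limma called 0 (0%) at an adjusted p under 0.05, and the lowest adjusted p was 0.985. An unadjusted p under 0.05 was reached by 642 probe sets (3.83%), 309 with higher (1.84%) and 333 with lower values after estrogen (1.99%), where 838 lie under that bound if p-values are spread evenly. Mean values were higher after estrogen for 9102 probe sets (54.3%). The 3 estrogen arrays all lay above the 3 control arrays for 691 probe sets (4.12%) and all below them for 533 (3.18%). At the level of named genes, each represented by its brightest probe set, 177 of 5785 (3.06%) had an unadjusted p under 0.05, 111 higher (1.92%) and 66 lower (1.14%). Of these genes 3341 (57.8%) had a higher mean, 275 (4.75%) had all estrogen arrays above and 137 (2.37%) all below. These shares are the background for the counts of every gene list.

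**Figure D1:**
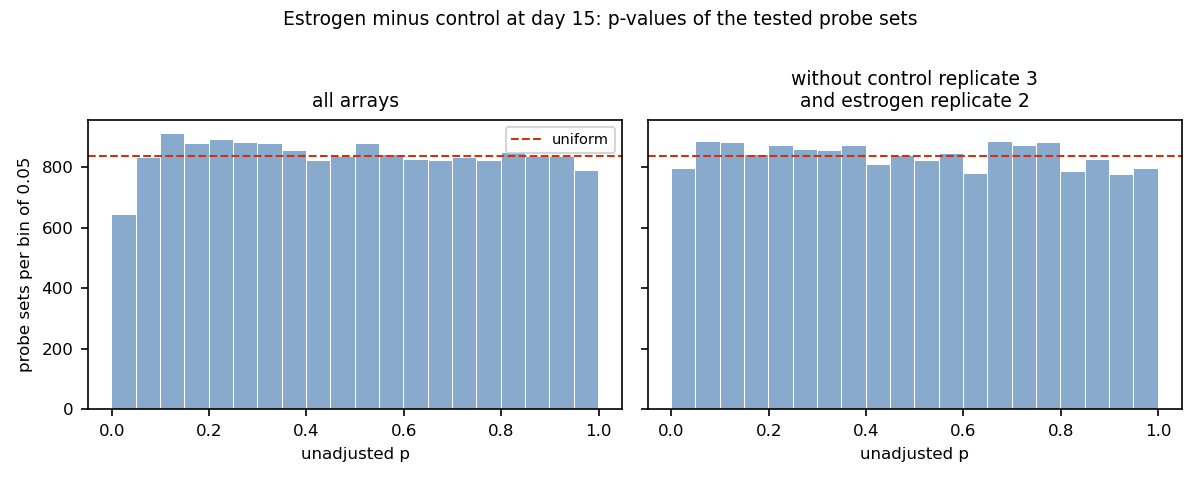
Number of tested probe sets per bin of 0.05 in unadjusted limma p (horizontal axis), estrogen minus control at day 15, with all arrays on the left and without control replicate 3 and estrogen replicate 2 on the right. The dashed line is an even spread, 838 per bin; the lowest bin holds 642 probe sets on the left and 794 on the right.

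The width of the intervals, which are not adjusted for the number of probe sets, says how precisely each single difference was measured. The 95% interval of the difference had a median half-width of 0.610 on the log2 scale, with 0.412 at the 10th and 1.08 at the 90th percentile of probe sets. For 11153 probe sets (66.6%) the whole interval lay within a 2-fold difference either way. For the rest, the interval reached beyond a 2-fold difference in at least 1 direction. The test over all probe sets is less sensitive than these intervals. In simulated data with 200 changed genes of 16754, it recovered 13.6% of those with a true log2 change of 1. It recovered 88.6% of those with a true log2 change of 2.

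Of the 6 arrays, control replicate 3 and estrogen replicate 2 stood apart, with median correlations to all other arrays of 0.873 and 0.885. Of the day 13 arrays, control replicate 1 stood apart in the same way, at 0.860, and the 11 others of the series had 0.927 or more. Between the other 4 arrays of day 15 the correlations were 0.932 to 0.961, across treatments as well as within them, while the 2 that stand apart correlated at 0.917 with each other. Without them limma again called 0 (0%), with a lowest adjusted p of 0.969 and 794 probe sets at an unadjusted p under 0.05 (4.74%), 318 higher (1.90%) and 476 lower (2.84%). Among named genes 206 (3.56%) then lay under that bound, 133 higher (2.30%) and 73 lower (1.26%), and 3268 (56.5%) had a higher mean. Leaving out estrogen replicate 2 alone gave 1188 probe sets under that bound, and control replicate 1 alone 1104, with 0 called in either. RNA quality differed too. The 3′ minus 5′ log2 difference of GAPDH, which grows as RNA degrades, was 2.39, 1.88 and 1.09 in the control gilts and 2.55, 1.36 and 2.84 in the estrogen gilts. The same difference for actin was 1.64, 1.23 and 0.77 against 2.33, 1.35 and 1.81. Estrogen replicates 1 and 3 were thus the highest of the day on both measures, and the exact permutation p (two-sided) was 0.5 and 0.2, where 3 against 3 arrays cannot give less than 0.1. For EF1A the values were 0.038, -0.071 and -0.003 against 0.24, -0.036 and 0.18, with an exact permutation p of 0.3. A quality score that combines GAPDH, actin and EF1A also had an exact permutation p of 0.3. With RNA quality as a covariate, limma called 0 probe sets, with 867 at an unadjusted p under 0.05.

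In the values below, signals are given as log2(signal + 16), in the order of replicates 1, 2 and 3 of the control gilts and then of the estrogen gilts. A difference is estrogen minus control on that scale, with its standard error (SE) from the fit, and a fold is the same difference unlogged, which understates the change of dim genes. Every gene named had an adjusted p of 0.985 or more in limma, so that no difference below marks a call.

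The named gene of lowest p with higher values after estrogen was PIGR. It gave 8.71, 8.06 and 8.05 in the control gilts and 9.14, 10.19 and 9.18 in the estrogen gilts, a difference of 1.23 ± 0.34 (SE) with a 95% interval from 0.51 to 1.95. The groups did not overlap, and the highest value was that of estrogen replicate 2, which stands apart. Without both arrays that stand apart, the difference was 0.78. NAPRT, which makes NAD from nicotinic acid, gave 7.60, 8.19 and 7.81 against 8.50, 8.30 and 8.83, or 0.67 ± 0.19, and 0.77 without these arrays. YWHAE, an adaptor that binds phosphorylated proteins, gave 11.30, 11.26 and 10.82 against 12.11, 11.49 and 12.28, or 0.83 ± 0.24. In YWHAE the arrays that stand apart were the lowest of each group, and the difference without them was 0.91.

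BLOC1S1, a subunit of a complex that builds lysosome-related organelles, had narrow groups, 8.62, 8.71 and 8.58 against 9.07, 9.04 and 9.36. SCP2, the sterol carrier protein, gave 11.26, 12.22 and 11.14 against 12.90, 12.19 and 12.51, a difference of 0.99 ± 0.30, with control replicate 2 level with estrogen replicate 2. The virus-restricting deaminase APOBEC3B gave 8.14, 8.22 and 7.53 against 8.65, 8.62 and 9.03. SP140, a nuclear body protein of leukocytes, gave 9.52, 9.35 and 9.36 against 10.06, 10.49 and 10.22, a difference of 0.85 ± 0.27. PLEK, pleckstrin of platelets and leukocytes, showed the largest of these differences, with 6.72, 6.81 and 5.55 against 7.48, 7.64 and 9.07, or 1.70 ± 0.54 and 3.25-fold. Its groups did not overlap, and its extremes were control replicate 3 and estrogen replicate 3. TMEM175, a lysosomal ion channel, gave 6.25, 5.09 and 4.49 against 6.26, 6.26 and 7.23, where control replicate 1 lay just under 2 of the estrogen arrays. TSR3, HLTF, WARS, RILPL2, MAZ and SPG21 complete the 15 genes of lowest p on this side, with differences of 0.51 to 0.91. All 15 were higher also without the arrays that stand apart, by 0.34 to 1.51.

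On the other side SLMAP, a membrane-anchored protein of a phosphatase complex, had the lowest p of all named genes in limma. It gave 7.58, 7.83 and 8.17 against 6.62, 7.505 and 6.76, a difference of -0.90 ± 0.24 with an interval from -1.41 to -0.38. Estrogen replicate 2 lay just under the lowest control array, and without the arrays that stand apart the difference was -1.01. COL1A2 gave 9.33, 9.75 and 10.16 against 8.57, 9.29 and 8.79, or -0.86 ± 0.24, and -0.86 without these arrays. Its groups did not overlap, though estrogen replicate 2 lay just under control replicate 1, and another probe set of the gene differed by -0.17. ARFGAP3, a regulator of traffic at the Golgi, gave 10.94, 11.07 and 10.58 against 10.25, 10.32 and 10.36, while its other probe sets differed by -0.13 and 0.39. TSPAN14, a tetraspanin that carries the protease ADAM10 to the cell surface, gave 11.46, 11.33 and 12.20 against 11.09, 10.02 and 10.81. Its difference of -1.02 ± 0.33 was -0.44 without the arrays that stand apart.

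TGFB2, a transforming growth factor, gave 8.47, 8.14 and 8.44 against 7.71, 7.46 and 7.81, or -0.69 ± 0.25, with no overlap. PRKAA1, a catalytic subunit of the energy sensor AMPK, gave 8.51, 9.03 and 8.84 against 7.96, 8.22 and 7.83, or -0.79 ± 0.29, again with no overlap. RGS16, which shuts off G proteins, gave 7.73, 7.53 and 6.47 against 5.93, 5.54 and 7.04, so that estrogen replicate 3 lay above control replicate 3. CEBPD, a transcription factor of acute-phase responses, gave 10.90, 11.80 and 12.70 against 10.60, 10.79 and 10.99, a difference of -1.01 ± 0.35 that was -0.56 without the arrays that stand apart. OXCT1, the enzyme that opens ketone body use, gave 9.0, 8.94 and 8.52 against 8.51, 7.76 and 8.33. ZKSCAN5, RGCC, SLC3A1, PITPNA, TMOD3 and IGDCC3 complete the 15, with differences of -1.13 to -0.46. Another probe set of RGCC differed by 0.05.

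**Figure D2:**
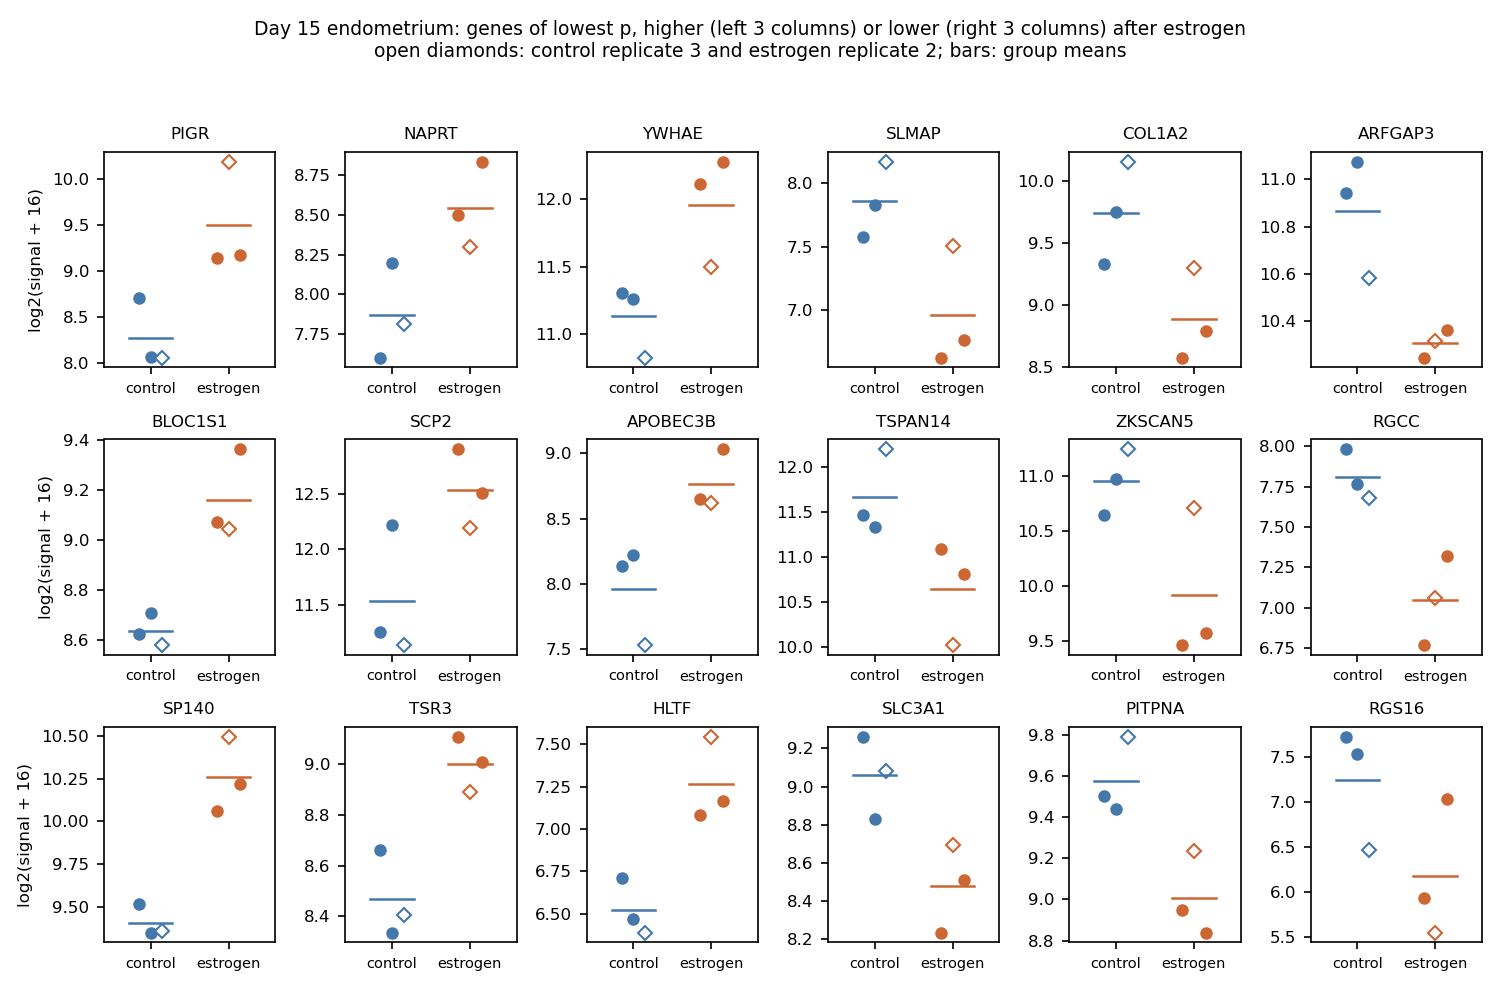
Level of the 9 named genes of lowest p on each side in every day 15 gilt, as log2(signal + 16) on the vertical axis with a scale per gene, control in blue and estrogen in orange; bars are group means of 3 gilts and open diamonds mark control replicate 3 and estrogen replicate 2. In PIGR the 3 control gilts lie at 8.05 to 8.71 and the estrogen gilts at 9.14 to 10.19, and in SLMAP the estrogen gilts lie at 6.62 to 7.505 under controls at 7.58 to 8.17; none passed the test.

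Without control replicate 3 and estrogen replicate 2, a partly different set of genes had the lowest p. CLDN12, a tight junction protein, gave 8.12 and 8.24 in the remaining control gilts and 6.11 and 6.34 in the remaining estrogen gilts, a difference of -1.95 ± 0.38. The arrays left out ran the other way in this gene, with 6.81 in control replicate 3 and 8.40 in estrogen replicate 2, and the difference over all arrays was -0.77. TSN, the nucleic acid-binding translin, gave 7.19 and 7.39 against 5.34 and 5.79, or -1.73, with 8.05 and 7.84 on the arrays left out. DEFB1, an antimicrobial defensin of epithelia, was higher by 1.61, at 9.60 and 8.58 against 10.79 and 10.62. Its arrays left out were at 6.70 in the control and 7.64 in the estrogen gilt, each the lowest of its group. MGAT1, which starts complex N-glycans, was higher by 0.87, POMT1, a protein mannosyltransferase, by 0.86, and BAIAP2, a scaffold of actin at the membrane, by 0.83. BAIAP2 differed by 0.16 with all arrays. The mitochondrial ubiquitin ligase MARCH5 differed by -0.64, and LOC396566 was higher by 1.504. YWHAE, NAPRT, WARS, SLMAP, ZKSCAN5, ARFGAP3, COL1A2 and RGS16 were among the 8 of lowest p per side in this setting as well as among the 15 of the full set.

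Class II presentation had the highest median of the lists, followed by cell cycle. Of 16 class II presentation genes tested, 15 had a higher mean after estrogen and 3 an unadjusted p under 0.05, beside 57.8% and 1.92% of all named genes. The median difference was 0.67, 0.36 without the arrays that stand apart and 0.24 without control replicate 3 alone. With RNA quality as a covariate it was 0.34. IFI30, a lysosomal reductase that unfolds antigens, gave 10.16, 11.15 and 10.10 against 11.13, 11.04 and 11.71, or 0.82 ± 0.34. CIITA, the transactivator of class II genes, gave 7.25, 7.24 and 5.22 against 7.91, 7.39 and 8.49, or 1.36 ± 0.63. Its groups did not overlap, control replicate 3 being far below the others. SLA-DOA, a class II chain that restrains peptide loading, gave 6.98, 7.61 and 7.10 against 8.58, 7.57 and 8.71, or 1.06 ± 0.46, with estrogen replicate 2 inside the control range. For SLA-DQB1, which presents peptide to T cells, the values were 11.51, 11.81 and 10.27 against 11.88, 11.47 and 12.53. CD74, the invariant chain, gave 12.07, 12.07 and 10.71 against 12.20, 11.69 and 13.01. It was chosen after its values were seen, as were SLA-DQA1 (0.73 ± 0.40) and SLA-DRA (0.32 ± 0.34). In CD74 and SLA-DQB1 the range of the estrogen gilts covered that of 2 control gilts, and control replicate 3 lay below all.

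Interferon gamma is made in pregnancy by the pig conceptus and by lymphocytes of the endometrium. Of 22 genes of its response that were tested, 17 had higher means, 4 had an unadjusted p under 0.05 and 7 had all estrogen arrays above all controls, beside 4.75% of named genes. The median was 0.58, and 0.59 without the arrays that stand apart. CIITA belongs to this list and to the class II list, and is counted under an unadjusted p of 0.05 in both. WARS, a tRNA synthetase induced by interferon gamma, gave 9.89, 9.21 and 10.08 against 10.54, 10.43 and 10.96, or 0.91 ± 0.29. PSME2, an activator subunit of the immunoproteasome, gave 10.88, 10.75 and 11.25 against 11.40, 11.82 and 11.83, or 0.72 ± 0.25. Its partner PSME1 gave 11.27, 11.32 and 11.71 against 11.82, 12.13 and 11.94, or 0.53 ± 0.24. In WARS, PSME2 and PSME1 the groups did not overlap, and no single array set the difference. Other genes of the response had wider groups, among them 3 that were chosen after their values were seen. CXCL9, a chemokine for T cells, gave 9.89, 10.14 and 5.04 against 10.08, 9.15 and 12.57. For GBP1, a guanylate-binding protein of cell-intrinsic defence, the values were 9.40, 10.01 and 9.85 against 9.90, 9.29 and 12.07. UBD, a ubiquitin-like modifier, gave 9.81, 9.87 and 8.01 against 9.93, 9.19 and 11.79. In each, estrogen replicate 3 was the highest array, and in CXCL9 and UBD control replicate 3 was also the lowest. The other estrogen arrays lay in or near the range of control replicates 1 and 2. The median of the list was 0.19 without estrogen replicate 3 and 0.33 with RNA quality as a covariate.

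The type I interferon list, antiviral genes, had 22 of 26 tested members with higher means and 3 with an unadjusted p under 0.05. Its median was 0.42, 0.25 without the arrays that stand apart and 0.48 with RNA quality as a covariate. IFIT2, which blocks the translation of viral RNA, gave 8.70, 8.63 and 7.76 against 8.91, 9.68 and 8.83, or 0.78 ± 0.31, and 0.20 without these arrays. Its other probe sets differed by 0.11 and 0.50. IRF7, a transcription factor that amplifies interferon production, gave 7.89, 7.29 and 7.46 against 8.62, 7.77 and 9.36, or 1.03 ± 0.44. Estrogen replicate 2 lay within the control range in IRF7, and without the arrays that stand apart the difference was 1.40. ZBP1, a sensor of viral nucleic acid, gave 7.17, 7.09 and 6.76 against 7.495, 7.39 and 7.97, or 0.61 ± 0.27, with no overlap. IFI44L, an interferon-induced protein, gave 10.82, 10.56 and 9.94 against 10.56, 11.42 and 11.48, with overlap.

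Markers of macrophages and, less steadily, of lymphocytes had higher means alongside these lists. Of 12 macrophage and dendritic cell markers tested, of 15 on the array, 10 had higher means and 1, PLEK, an unadjusted p under 0.05. The median was 0.56, 0.32 without the arrays that stand apart and 0.28 without control replicate 3 alone, and it was 0.23 with RNA quality as a covariate. The summed signal of the 12 ranged from 3137 to 5691 in the control gilts and from 4296 to 7267 in the estrogen gilts. ITGAM, SIGLEC1 and MARCO were too dim to test. SPI1, the transcription factor of the myeloid lineage, gave 7.29, 7.39 and 6.37 against 7.88, 7.51 and 8.55, or 0.96 ± 0.45, with no overlap. AIF1, an actin-binding protein of macrophages, gave 8.16, 8.64 and 7.64 against 8.84, 8.62 and 9.85, and TYROBP, a signalling adaptor of myeloid and natural killer cells, 8.16, 8.68 and 7.48 against 9.02, 8.33 and 9.47. In both genes the lowest array was control replicate 3 and the highest estrogen replicate 3. The mannose receptor MRC1, chosen after its values were seen, differed by 0.50 ± 0.36. Of 11 lymphocyte markers tested, 8 had higher means, with a median of 0.26 and of 0.03 without the arrays that stand apart. Their summed signal was 885.9 to 1879 against 1391 to 2236, and CD4, CD2, CD3G, CD27, CD79B, GNLY, IL7R and PRF1 were too dim to test. Among these markers IL2RG, a shared cytokine receptor chain, differed by 0.64 ± 0.38, PTPRC, the common leukocyte antigen, by 0.60 ± 0.38, and KLRK1, a receptor of killer cells, by -0.48 ± 0.44. More cells of a type and more RNA per cell cannot be told apart in tissue samples. Whether the leukocyte markers account for the class II and interferon values was not tested.

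**Figure D3:**
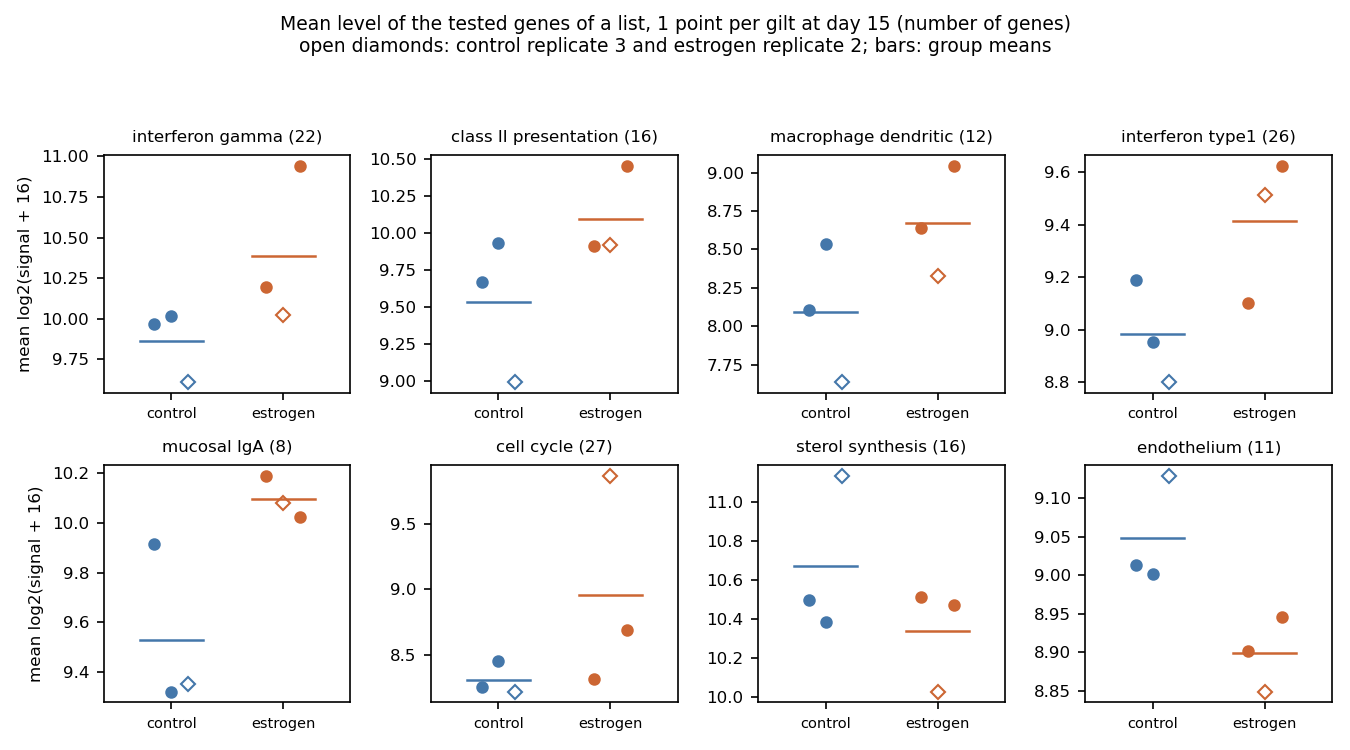
Mean log2(signal + 16) over the tested genes of 8 lists, 1 point per day 15 gilt, control in blue and estrogen in orange, bars for group means, open diamonds for control replicate 3 and estrogen replicate 2, and a vertical scale per list. In the interferon gamma list the control gilts lie at 9.61 to 10.02 and the estrogen gilts at 10.02 to 10.94, estrogen replicate 3 being the highest, while in the cell cycle list estrogen replicate 2 lies at 9.86 and the other 5 gilts at 8.22 to 8.69.

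Immunoglobulin A is carried into the uterine lumen by PIGR and its plasma cells are drawn by CCL28. In the mucosal list 7 of 8 tested genes had higher means, at a median of 0.49, of 0.45 without the arrays that stand apart and of 0.27 with RNA quality as a covariate. CCL28 gave 10.36, 7.37 and 7.53 against 9.51, 9.17 and 9.69, a difference of 1.04 ± 0.58. Control replicate 1 was the highest of all and the other control arrays the lowest, so that the estrogen gilts lay close together inside the control range. DEFB1 gave a difference of 1.39 ± 0.77, and of -0.26 with RNA quality as a covariate, while its other probe set differed by 0.15. SLPI, a secreted protease inhibitor, differed by 0.55 ± 0.66. Of the plasma cell markers, JCHAIN, which joins the units of immunoglobulin A, gave 11.30, 11.84 and 8.92 against 11.86, 11.30 and 10.17. Its difference of 0.42 ± 0.72 was -0.55 without the arrays that stand apart. CD38, a surface enzyme of plasma cells and other leukocytes, gave 6.86, 7.75 and 8.79 against 6.0, 6.93 and 6.67, or -1.27 ± 0.48, with control replicate 1 inside the estrogen range. XBP1, which expands the secretory machinery, differed by 0.10 ± 0.18.

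Among 30 cytokine and chemokine genes 21 had higher means and 1 an unadjusted p under 0.05, with a median of 0.20, and of 0.048 with RNA quality as a covariate. LTB, a lymphotoxin that organises lymphoid tissue, gave 7.74, 7.71 and 4.84 against 8.00, 8.14 and 8.47, or 1.44 ± 0.60. Control replicate 3 made most of that gap, and the difference was 0.51 without the arrays that stand apart. TNFSF10, the death ligand TRAIL, gave 8.77, 9.01 and 7.32 against 9.06, 8.79 and 10.29. CXCR4, a chemokine receptor of lymphocytes, differed by 0.85 ± 0.43, and by 0.08 without the arrays that stand apart. In the list of complement and protease inhibitors 22 of 38 genes had higher means, at a median of 0.08, and none had an unadjusted p under 0.05. CFB, factor B of the alternative complement pathway, gave 8.28, 8.29 and 7.43 against 9.83, 8.80 and 8.66, or 1.09 ± 0.65, with no overlap. F3, tissue factor, differed by -0.89 ± 0.48, PROC, the anticoagulant protein C, by -1.17 ± 0.69, and the plasma inhibitor ITIH4 by -0.54 ± 0.26. For F3 the difference was -0.09 without the arrays that stand apart.

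The receptors through which estrogen and progesterone act showed small differences with wide intervals. ESR1, the estrogen receptor alpha, gave 8.58, 8.72 and 8.77 against 8.26, 8.83 and 9.28, a difference of 0.10 with a 95% interval from -0.69 to 0.89. PGR, the progesterone receptor, gave 8.97, 8.70 and 8.71 against 8.72, 9.94 and 9.21, or 0.50 with an interval from -0.59 to 1.59. The highest value was that of estrogen replicate 2, and without the arrays that stand apart PGR differed by 0.13. NR3C1, the glucocorticoid receptor, gave 8.27, 8.62 and 7.93 against 7.93, 7.39 and 7.83 on its brightest probe set, while its other probe sets differed by 0.31 and -0.61. HSD17B8 and HSD17B7, enzymes that interconvert estrogens of different potency, differed by 0.42 ± 0.24 and -0.69 ± 0.70, and HSD17B7 by 0.34 without the arrays that stand apart. NCOA1, a coactivator of steroid receptors, differed by 0.25 ± 0.25, and its other 5 probe sets by -0.20 to 0.25. In this list 11 of 17 genes had higher means, at a median of 0.10, with none under an unadjusted p of 0.05.

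Targets of these receptors were split evenly, with 8 higher and 8 lower means among 16 tested. TFF1, a trefoil peptide that estrogen induces in many epithelia, gave 8.41, 8.42 and 9.59 against 7.75, 7.83 and 8.11, or -0.91 ± 0.37, the only gene of the list under an unadjusted p of 0.05. Its groups did not overlap, and the difference was -0.48 without the arrays that stand apart. FOXO1, a transcription factor of the progesterone response, gave 11.66, 11.60 and 11.82 against 11.10, 10.35 and 11.04, or -0.86 ± 0.41, with no overlap. GATA2, which works with the progesterone receptor, differed by 0.45 ± 0.26. FOXA2, the transcription factor of uterine glands, gave 11.13, 10.78 and 9.23 against 11.01, 11.33 and 10.80. Control replicate 3 alone was low in FOXA2, and its difference of 0.67 was -0.05 without the arrays that stand apart. IHH, the hedgehog ligand that carries the progesterone signal from epithelium to stroma, gave 7.58, 7.41 and 7.45 against 7.28, 7.64 and 6.56, or -0.32 with an interval from -0.90 to 0.26.

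Secretions of the glands nourish the conceptus in the pig, and their abundant proteins were bright in every gilt. ACP5, uteroferrin, an iron-carrying phosphatase, gave 14.63, 14.23 and 14.29 against 14.71, 14.13 and 15.20, or 0.30 ± 0.64. RBP4, which carries retinol, gave 14.58, 14.09 and 14.19 against 14.52, 13.91 and 15.15, or 0.24 ± 0.50, and -0.01 after quantile normalization. A dimmer probe set of RBP4 differed by 1.41. For ACP5 and the brightest probe set of RBP4 genes the lowest array was estrogen replicate 2 and the highest estrogen replicate 3, so that the estrogen group spanned the control group. WFDC2, a whey acidic protein of epithelia, gave 12.80, 10.67 and 12.81 against 11.36, 11.35 and 9.98, or -1.20 ± 0.83, while its other probe set differed by -0.01. The proteases CTSC and CTSS, lysosomal cathepsins, differed by -0.82 ± 0.56 and 0.47 ± 0.33, and a further probe set of CTSS by -0.03. In the list of gland secretions 12 of 18 genes had higher means, at a median of 0.12, and none had an unadjusted p under 0.05. No probe set carried the symbol of the uterine serpin, SERPINA14.

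In the retinoid list, genes of vitamin A transport and signalling, 6 of 10 had higher means at a median of 0.05. RXRB, a retinoid X receptor, differed by 0.39 ± 0.26 and RXRA by -0.15 ± 0.25. RARRES2, a retinoid-induced chemoattractant, differed by -0.20 ± 0.30, and by 0.37 without the arrays that stand apart. RLBP1, a carrier of retinaldehyde, gave 7.001, 6.25 and 4.84 against 5.998, 4.91 and 5.27, or -0.64 ± 0.59. At day 13 its difference was 1.82 (1.59 without the day 13 control that stands apart), and the difference between the days was -2.47 (adjusted p = 0.99 in limma).

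Growth factors and their partners had 17 of 28 lower means, at a median of -0.17, and both members under an unadjusted p of 0.05 were lower, TGFB2 and IGFBP5. Without the arrays that stand apart 2 members were under that bound, both higher. IGFBP5, which binds insulin-like growth factors, gave 9.59, 9.35 and 10.33 against 9.22, 9.06 and 8.74, or -0.75 ± 0.28, with no overlap, and -0.50 without the arrays that stand apart. IGF1, itself such a growth factor, gave 9.79, 9.20 and 9.09 against 8.91, 9.31 and 8.85, or -0.34 ± 0.43. FGFR2, the receptor of FGF7 in epithelium, differed by -0.56 ± 0.31 and KIT, the receptor of stem cell factor, by -0.50 ± 0.29. FGF7 itself, which estrogen induces in the pig luminal epithelium, gave 9.93, 10.26 and 8.47 against 9.86, 5.81 and 10.30. Only estrogen replicate 2 was low, and the difference of -0.89 ± 1.02 was -0.01 without the arrays that stand apart. LIF, a cytokine of implantation, gave 6.73, 8.56 and 11.71 against 7.60, 8.10 and 7.16, so that control replicate 3 alone was high. Its difference of -1.38 ± 0.85 was -0.26 without the arrays that stand apart. FGF9, a fibroblast growth factor of uterine epithelium, differed by 0.02 ± 0.37, and by -0.04, -0.02 and -0.17 with quantile normalization, median centring and without the arrays that stand apart. STC1, the calcium-regulating hormone stanniocalcin, gave 10.70, 13.15 and 7.46 against 11.25, 6.99 and 11.09. Its interval, from -3.71 to 2.38, was the widest of the uterine genes plotted.

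Prostaglandins and oxytocin decide whether the corpora lutea are kept. PTGS2, the inducible enzyme that starts prostaglandin synthesis, gave 9.56, 10.57 and 12.02 against 10.27, 10.17 and 10.33. The estrogen gilts lay close together within the control range, and the difference of -0.46 ± 0.54 was 0.23 without the arrays that stand apart. PTGES, the synthase of prostaglandin E, gave 9.45, 8.42 and 9.58 against 10.35, 9.51 and 10.00, or 0.80 ± 0.47, and 1.24 without these arrays. OXTR, the oxytocin receptor, gave 7.05, 6.79 and 8.01 against 6.83, 6.41 and 6.75, or -0.62 ± 0.35, and -0.13 without them. The constitutive enzyme PTGS1 differed by -0.47 ± 0.32, and ALOX5AP, the helper of leukotriene synthesis, by 0.75 ± 0.52. The list had 5 higher and 7 lower means of 12, at a median of -0.10.

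**Figure D4:**
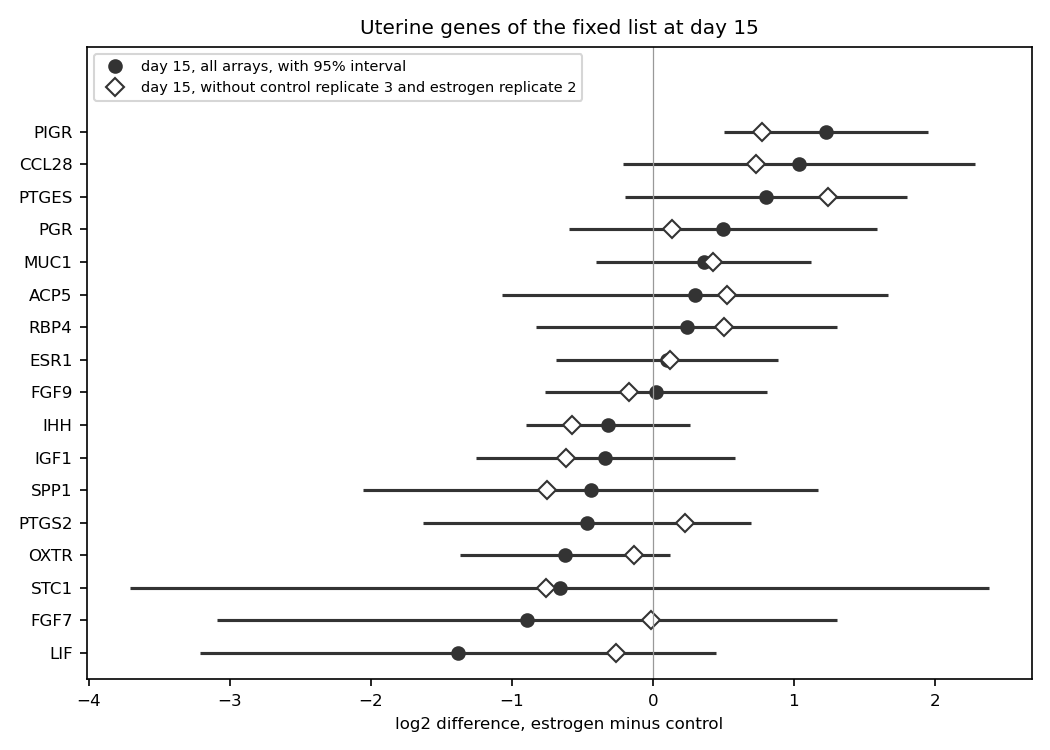
Log2 difference, estrogen minus control at day 15, of 17 uterine genes with all arrays (filled circles, bars for the 95% interval) and without control replicate 3 and estrogen replicate 2 (open diamonds), in order of difference. Only the interval of PIGR, 0.51 to 1.95, lies clear of 0, and those of STC1, FGF7 and LIF are the widest.

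Attachment in the pig takes place at the luminal surface, where mucins are shed and integrins bind osteopontin. SPP1, osteopontin, gave 13.45, 13.76 and 13.46 against 13.46, 13.64 and 12.25, with estrogen replicate 3 below the rest and a difference of -0.44 ± 0.75. MUC1, the surface mucin, gave 9.89, 9.84 and 8.98 against 10.34, 9.21 and 10.25, or 0.36 ± 0.36, and -0.29 with RNA quality as a covariate. In MUC1 the lowest array of each group was the one that stands apart. ITGB1, an integrin chain, differed by -0.23 ± 0.16, the tight junction genes CLDN4 and CLDN7 by -0.53 ± 0.41 and 0.22 ± 0.18, and TJP1, which anchors tight junctions to actin, by 0.54 ± 0.31. Of 30 genes for adhesion, mucins and junctions 12 had higher means, at a median of -0.01, and none had an unadjusted p under 0.05.

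All 15 epithelial and all 11 stromal markers on the array were bright enough to test. Of the epithelial markers 12 had higher means, at a median of 0.22, and their summed signal was 51970 to 64870 in the control and 56470 to 63380 in the estrogen gilts. KRT8, a keratin of simple epithelia, gave 12.71, 12.10 and 12.66 against 13.02, 12.80 and 12.84, or 0.40 ± 0.21, with no overlap. KRT18 differed by 0.33 ± 0.22. KRT19 gave 10.30, 8.25 and 10.89 against 10.45, 11.62 and 10.22, a difference of 0.95 ± 0.60. All 5 markers of ciliated cells had overlapping groups, with a median of 0.23. CCDC78, which is needed to build many cilia in a cell, differed by 0.54 ± 0.36, TPPP3, a tubulin-binding protein, by 0.41 ± 0.32, and TEKT1, a filament of the axoneme, by 0.23 ± 0.31. TUBB4B, a tubulin of cilia, differed by -0.21 ± 0.37, and by 0.08 without the arrays that stand apart. Whether the epithelial share has a part in the values of PIGR was not tested.

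Stromal markers had 8 of 11 lower means at a median of -0.13, with a summed signal of 35100 to 42650 in the control and 32610 to 36290 in the estrogen gilts. Besides COL1A2, THY1, a surface protein of fibroblasts, gave 9.27, 12.25 and 11.31 against 9.54, 8.32 and 9.13, or -1.95 ± 0.94. Control replicate 1 of THY1 lay among the estrogen gilts. PDGFRB, the receptor of fibroblasts and pericytes, differed by -0.23 ± 0.26 and TWIST2, a transcription factor of mesenchyme, by -0.47 ± 0.61. Of 11 smooth muscle markers 9 had lower means, at a median of -0.15, and none had an unadjusted p under 0.05. CALD1, which binds actin and calmodulin, differed by -0.41 ± 0.27, RGS5 of pericytes by -0.66 ± 0.47, SMTN by -0.16 ± 0.24 and MYL9, a myosin light chain, by -0.30 ± 0.37. Without the arrays that stand apart MYL9 differed by 0.08. Among 31 genes of the extracellular matrix 19 had lower means, at a median of -0.13. HTRA1, a secreted protease, gave 12.68, 11.34 and 11.44 against 12.58, 12.49 and 12.92, or 0.84 ± 0.38. LAMC1 of basement membranes and MMP2, a gelatinase, differed by -0.50 ± 0.34 and -0.44 ± 0.30.

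Endothelial markers were the cell type list with the most members under an unadjusted p of 0.05 on the lower side, 2 of 11, beside 1.14% of named genes. Without the arrays that stand apart none of the 11 was under that bound. CDH5, the cadherin that joins endothelial cells, gave 10.22, 10.10 and 10.40 against 9.91, 9.67 and 9.62, or -0.51 ± 0.19. ESAM, a further adhesion molecule of their junctions, gave 9.32, 8.89 and 9.13 against 8.78, 8.47 and 8.53, or -0.52 ± 0.23. In both genes the groups did not overlap. TEK, the receptor of angiopoietins, differed by -0.35 ± 0.27. VWF, the clotting factor that endothelium stores, ran the other way, with 10.87, 10.76 and 10.40 against 11.25, 10.86 and 11.32, or 0.47 ± 0.24, while its other probe set differed by -0.21. The list had 9 lower means of 11, a median of -0.22 and a median of -0.16 without the arrays that stand apart. Its mean level in each gilt was 9.01, 9.002 and 9.13 against 8.90, 8.85 and 8.95. KDR and SELE were too dim to test.

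Among vascular and hypoxia genes, EDN1, the vasoconstrictor endothelin, gave 8.81, 9.09 and 9.27 against 8.50, 8.49 and 8.71, or -0.49 ± 0.21. Its receptor EDNRB gave 8.39, 8.32 and 9.60 against 7.99, 8.24 and 7.08, or -1.002 ± 0.43. In ligand and receptor alike all estrogen gilts lay below all controls. EPAS1, a transcription factor that responds to low oxygen, gave 12.08, 12.17 and 12.32 against 11.91, 10.95 and 11.61, or -0.70 ± 0.44, with no overlap. HMOX1, the haem-degrading enzyme, differed by -0.53 ± 0.34, and by 0.08 without the arrays that stand apart. The list as a whole had 17 lower means of 32, at a median of -0.04, and 4 members with all estrogen arrays below, beside 2.37% of named genes.

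Cell cycle genes had 22 of 27 higher means at a median of 0.63, of 0.13 without the arrays that stand apart and of 0.21 without estrogen replicate 2 alone. With RNA quality as a covariate the median was 1.09. CCNB2, a cyclin of mitosis, gave 6.04, 6.27 and 5.69 against 6.64, 9.20 and 7.82, or 1.88 ± 0.73, with no overlap. CENPF, a kinetochore protein, gave 6.55, 7.56 and 5.84 against 7.05, 9.93 and 8.55, and BIRC5, the mitotic regulator survivin, gave 6.84, 7.18 and 6.63 against 7.09, 9.44 and 7.75. In all 3 genes estrogen replicate 2 was the highest array, estrogen replicate 3 the next and estrogen replicate 1 near the controls. CDC45, a factor of replication origins, gave 7.91, 8.15 and 7.68 against 8.17, 8.81 and 8.12. The mean level of the list was 8.26, 8.45 and 8.22 in the control and 8.32, 9.86 and 8.69 in the estrogen gilts.

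Sterol synthesis genes ran opposite, with 13 of 16 lower means at a median of -0.41, of 0.00 without the arrays that stand apart and of -0.15 without control replicate 3 alone. CYP51, which removes a methyl group of lanosterol, gave 11.59, 11.44 and 12.95 against 11.34, 11.37 and 11.32. The estrogen gilts lay close together just under control replicates 1 and 2, and control replicate 3 was the high one. SQLE, squalene epoxidase, gave 10.78, 10.73 and 11.78 against 11.03, 9.99 and 10.34, SC5D, a late desaturase, 10.87, 11.03 and 11.72 against 10.73, 10.57 and 10.95, and FDFT1, which makes squalene, 12.17, 12.31 and 12.09 against 12.20, 11.29 and 11.90. The mean level of the list was 10.50, 10.38 and 11.14 against 10.51, 10.03 and 10.47, so that the arrays that stand apart were its highest and its lowest. Lipid transport genes were divided, 14 higher and 15 lower, at a median of -0.04. ACSL4, which activates arachidonic acid, differed by -0.69 ± 0.41 and ACSL1, which activates other fatty acids, by 0.42 ± 0.22. PLTP, a phospholipid transfer protein, differed by 0.51 ± 0.25, and LRP8, a lipoprotein receptor, by -0.72 ± 0.45.

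**Figure D5:**
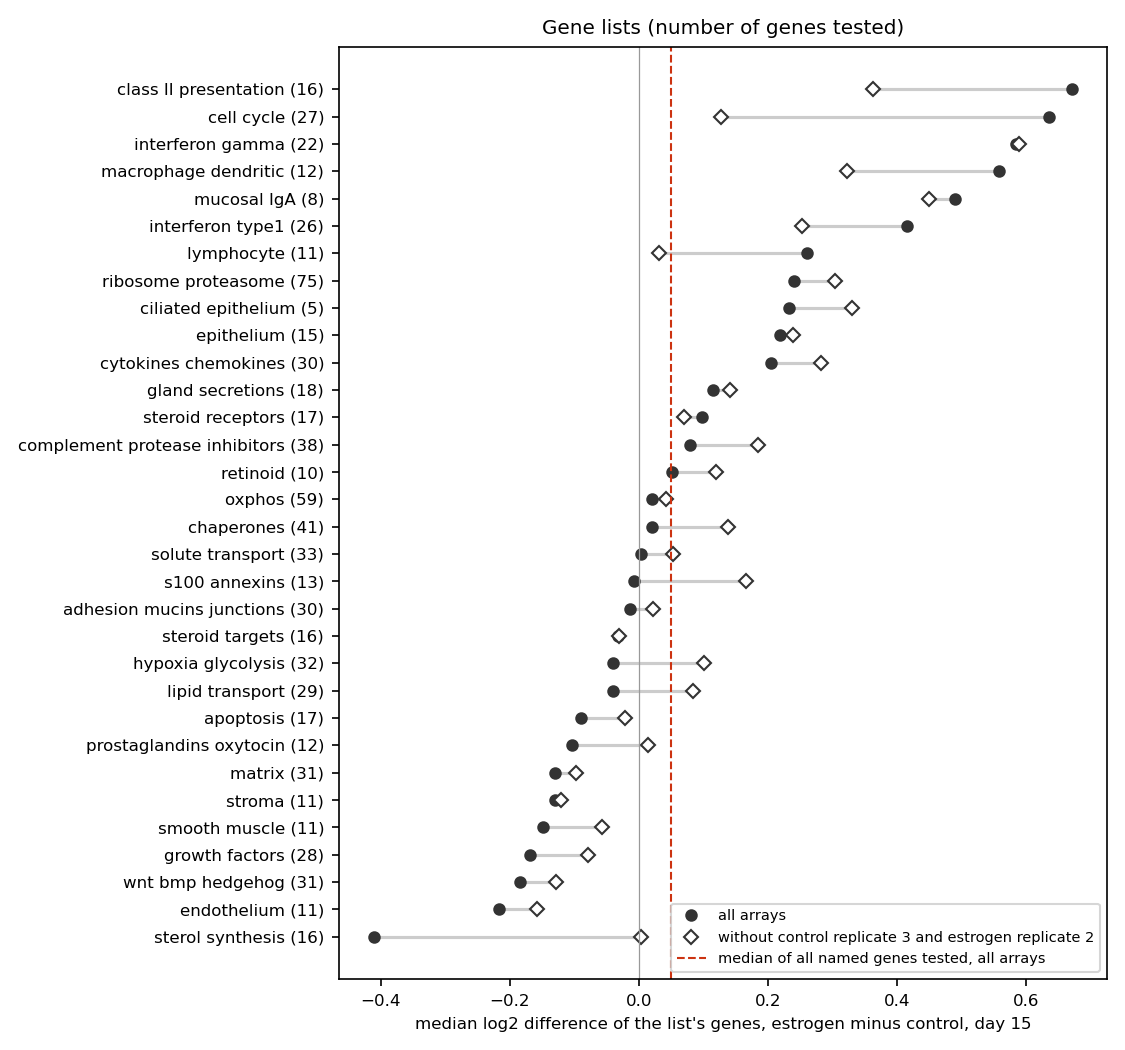
Median log2 difference, estrogen minus control at day 15, of each gene list with 5 or more tested genes (number in brackets), with all arrays (filled) and without control replicate 3 and estrogen replicate 2 (open), against the median of all named genes, 0.05 (dashed). Class II presentation, at 0.67, and sterol synthesis, at -0.41, are the ends with all arrays; cell cycle and sterol synthesis lie at 0.13 and 0.00 in the other setting. The points carry no test.

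Transporters supply the lumen with water, ions and amino acids. AQP3, a channel for water and glycerol, gave 12.14, 9.87 and 7.96 against 12.05, 11.13 and 12.23, or 1.81 ± 0.77 and 3.51-fold. Control replicate 1 lay level with the estrogen gilts, and the difference was 1.13 without the arrays that stand apart. SLC3A1, the heavy chain of the cystine transporter, gave 9.26, 8.83 and 9.08 against 8.23, 8.69 and 8.51, or -0.58 ± 0.19, with no overlap. ATP1B1, a subunit of the sodium pump, gave 12.87, 11.43 and 10.95 against 13.45, 12.66 and 12.50, and SLC38A1, a glutamine carrier, gave 11.90, 11.07 and 10.48 against 12.24, 11.002 and 12.39. The other probe sets of SLC38A1 differed by 0.43 and 0.01. Of 33 transport genes 17 had higher means, at a median of 0.00.

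Of 75 ribosomal and proteasomal genes tested, 60 had higher means, beside 57.8% of named genes. Their median was 0.24, and 0.30 without the arrays that stand apart. None had an unadjusted p under 0.05, and 3 of the 75 had all estrogen arrays above, beside 4.75% of named genes. The median was 0.07 after quantile normalization. RPL35 gave 13.70, 13.49 and 13.40 against 13.97, 13.62 and 14.11, and RPL27, a further protein of the large subunit, gave 13.39, 13.32 and 13.48 against 13.74, 13.67 and 13.69. RPL38 differed by 0.36 ± 0.18, and by -0.21 on its other probe set. PSMA4 of the proteasome core gave 11.61, 11.95 and 12.13 against 12.22, 12.35 and 12.23, or 0.37 ± 0.19. Respiratory chain genes had 35 of 59 higher means at a median of 0.02. Of its complex I subunits NDUFV3, NDUFA3 and NDUFA7 differed by 0.54 ± 0.32, 0.32 ± 0.20 and 0.25 ± 0.18, and NDUFC2 by -0.35 ± 0.23.

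Chaperones had 21 higher and 20 lower means of 41, at a median of 0.02, with the members of lowest p all lower. DNAJB1, a partner of the heat shock proteins, gave 11.27, 11.10 and 11.57 against 10.57, 10.38 and 10.67, or -0.77 ± 0.30. DNAJA1 gave 12.97, 13.06 and 13.25 against 12.37, 12.78 and 12.54, while its other probe set differed by 0.46. In DNAJB1 and DNAJA1 the groups did not overlap. BAG3, which steers damaged proteins to autophagy, and its partner HSPB8 differed by -0.53 ± 0.26 and -0.72 ± 0.36. Among 17 apoptosis genes, GADD45A, a damage-response gene, gave 11.93, 11.74 and 12.07 against 12.10, 12.89 and 12.37. BID, which promotes cell death, differed by 0.35 ± 0.18 and BCL2L1, which opposes it, by -0.40 ± 0.26, and the list had 11 lower means at a median of -0.09.

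The 13 calcium-binding S100 and annexin genes had 6 higher means at a median of -0.01, and 11 of 13 without the arrays that stand apart, at a median of 0.17. S100A11, S100A1 and S100A4 differed by 0.54 ± 0.32, 0.35 ± 0.24 and 0.67 ± 0.58, and ANXA4 of secretory epithelia by -0.33 ± 0.42. In the list of WNT, BMP and hedgehog genes 17 of 31 had lower means, at a median of -0.18. LRP6, the co-receptor of WNT ligands, differed by -0.40 ± 0.20, BMPR1A, a receptor of bone morphogenetic proteins, by -0.53 ± 0.29, and ID3, a target of that receptor, by -0.44 ± 0.28. ID3 was below all controls in every estrogen gilt, at 10.76, 10.82 and 10.79 against 11.02, 10.83 and 11.85. BMPR1A differed by -0.13 without the arrays that stand apart, since control replicate 3 was its high array at 10.84.

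Red blood cell and neutrophil markers were few. HBB, beta globin, gave 9.50, 9.84 and 9.68 against 9.15, 10.11 and 9.63, and ALAS2 of erythroid haem synthesis differed by 0.06 ± 0.32. S100A9, the only neutrophil marker bright enough to test, gave 5.95, 6.81 and 10.19 against 6.41, 8.81 and 6.68. It was high on the 2 arrays that stand apart and on no other of day 15. At day 13, however, S100A9 was at 5.65 on control replicate 1, which stands apart. It was at 10.32 and 10.52 on control replicate 3 and estrogen replicate 3 of that day, which do not. Of 8 trophoblast markers on the array, CYP19A1, HAND1, TFAP2C, PAG6 and IFN-DELTA-1 were too dim to test, and the tested KRT8, TEAD4 and GATA3 differed by 0.40 ± 0.21, 0.34 ± 0.47 and -0.18 ± 0.43, with 0.23 on another probe set of GATA3. SDC1, a proteoglycan of epithelium and plasma cells, gave 7.73, 7.22 and 10.04 against 7.74, 9.26 and 7.10, again high on the arrays that stand apart.

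The estrogen difference at day 15 was set against that at day 13, in 4 gilts per treatment, by testing the difference of the differences. Limma called 0 of 16754 probe sets (0%), with a lowest adjusted p of 0.99, and 595 at an unadjusted p under 0.05 (3.55%), 315 with a more positive difference at day 15 (1.88%) and 280 with a more negative one (1.67%). At day 13 itself limma called 0 (0%), with 485 at an unadjusted p under 0.05 (2.89%), 294 higher (1.75%) and 191 lower (1.14%). Among named genes the lowest p belonged to FAM107A, an actin-bundling stress gene, at 1.22 on day 13 and -0.25 on day 15, a difference of -1.46 ± 0.33. Its day 15 gilts gave 10.09, 9.45 and 9.34 against 9.67, 9.10 and 9.38, so that the gap of the days lay on the day 13 side. ZFAND2A, a gene of the heat shock response, was at 0.54 on day 13 and -0.60 on day 15, the day 15 gilts being 10.43, 10.33 and 10.56 against 9.65, 9.86 and 10.00. PLEK was at -0.80 and 1.70, TMEM175 at -0.65 and 1.31, NAPRT at -0.26 and 0.67, and SLMAP at 0.24 and -0.90. Without control replicate 1 of day 13, the array that stands apart, the day 13 differences were 1.06 for FAM107A, 0.40 for ZFAND2A, -0.56 for PLEK, -0.54 for TMEM175, -0.24 for NAPRT and 0.23 for SLMAP. The signs on the days were opposite with and without that array, but no difference between days passed.

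Of the 6 lists with the highest medians at day 15, all but the mucosal one (0.07) had medians below 0 at day 13 with all arrays. These medians moved with 1 day 13 gilt, control replicate 1. Class II presentation stood at -0.32 on day 13, the interferon gamma list at -0.26, type I interferon at -0.19 and cell cycle at -0.31. Macrophage markers stood at -0.12 at day 13 and sterol synthesis at 0.22. Without that gilt the day 13 medians were -0.035 for class II presentation, -0.10 for interferon gamma, 0.052 for type I interferon, -0.039 for cell cycle, 0.065 for macrophage markers, 0.26 for mucosal genes and 0.13 for sterol synthesis. The median difference between the days was 0.92 for class II presentation, 0.91 for interferon gamma, 0.60 for type I interferon, 0.64 for macrophage markers, 0.86 for cell cycle and -0.67 for sterol synthesis, against 0.08 over all named genes. Without that gilt it was 0.66, 0.62, 0.36, 0.30, 0.60 and -0.53 for these lists in the same order. CIITA differed by -0.53 at day 13, or -0.020 without that gilt, and by 1.36 at day 15. ZBP1 was at -0.58, or -0.47 without that gilt, and 0.61. IFI30 was at -0.37, or -0.24 without that gilt, and 0.82. With all arrays, 4 of 16 class II presentation genes had higher means after estrogen at day 13 and 15 at day 15. In the interferon gamma list these were 3 and 17 of 22 genes, and in the type I interferon list 6 and 22 of 26. WARS was higher on both days, at 0.61, or 0.74 without that gilt, and 0.91. At day 13 IFIT2 stood at 0.07, or 0.28 without that gilt, and SLA-DOA at -0.03, or 0.26 without it. PIGR was at -0.16, or 0.063 without that gilt, and 1.23. DEFB1 had the same difference on both days, 1.39, and CCL28 was higher at day 13 (1.6) as well as at day 15 (1.04). The oxytocin receptor stood at 0.60 on day 13 and -0.62 on day 15. No test was made of the lists, and no named gene passed the test of the difference between the days.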

How the data were processed

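Endometrial RNA of 14 gilts was hybridised to an Affymetrix porcine array, 1 gilt per array, after one-cycle biotin labelling, per the labels. For each probe set and array the authors deposited 1 unlogged signal intensity. The software, the annotation build and the scaling target are not given in the sources used here. The arrays share nearly the same trimmed mean, so the authors' intensities had been scaled before deposition, and median signals were 177.4 to 217.1. The number of arrays limits the precision. Gilts are labelled as biological replicates. From the 24123 probe sets 188 controls were left out, and 16754 were tested as log2(signal + 16) after the dimmest 30% of the 23935 others were set aside. All 14 arrays entered 1 limma fit (version 3.58.1, R 4.3.3; eBayes with trend, 10 residual degrees of freedom), with Benjamini-Hochberg adjustment over all tested probe sets. Figures were drawn with matplotlib 3.10.9. The fit was tested on simulated data. Other filters, normalizations, pseudocounts and sets of arrays, array weights, RNA quality as a covariate and the replicate number as a block were tried.

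Probe sets were named from the platform's probe-gene table, updated through gene identifiers: 10069 probe sets had 1 symbol (9961 matched the reference table), 198 had several and 13668 none. A gene is represented by its brightest tested probe set. Other probe sets are given where their sign differs and, for some genes, where their size differs. Those not given above include -1.15 for TGFB2, -1.14 for SLC3A1, -0.08 for PITPNA, 0.24 and 1.09 for IFI44L, and 0.16 and 0.56 for GBP1. Genes named are the 15 per direction of lowest p, the 8 per direction without the 2 arrays that stand apart, the 4 of lowest p in each of 36 lists, 20 uterine genes where measured, and the 6 of lowest p for the difference between days; others are marked in the text. The comparison, the 25 process and 11 cell type lists and the uterine genes were chosen with earlier results of these data known. Lists are described by counts and medians, with no test. The labels name no shared source of same-numbered gilts. Same-numbered gilts of day 15 had correlations of 0.24, -0.32 and -0.38 between their deviations from the group means. The highest correlation, 0.51, was that of control replicate 3 with estrogen replicate 2, which both stand apart. With so few arrays, these values cannot show whether the numbers pair the gilts.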

Additional observations from a re-analysis of the deposited data

How the results depend on the processing

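Under each of the 29 other settings of the fit, and with 1 probe set per named gene, limma called 0 probe sets for estrogen against control at day 15, and 0 for the difference between the days in each setting that included day 13. The lowest adjusted p over the settings was 0.238, without control day 15 replicate 1. The number at an unadjusted p under 0.05, 642 with all arrays, ranged from 539 to 1188 when 1 array was left out, being 1188 without estrogen day 15 replicate 2 and 1104 without control day 15 replicate 1. It was 1394 without the 2 day 15 arrays that stand apart and control day 13 replicate 1, 1029 with array weights, 1023 of 23935 with no filter on dim probe sets, 423 of 11967 with the dimmest 50% left out, 682 after quantile normalization, 684 after median centring, and 634 and 645 with pseudocounts of 1 and 64. With only the 6 arrays of day 15 in the fit it was 413, and 963 when the 2 that stand apart were also left out. With the replicate number as a block it was 648 and limma called 0, and 309 and 0 among only the 6 arrays. Whether same-numbered gilts share a source is not given in the labels. Of 183 named genes, 147 kept their sign in every setting and none passed in any. The 36 others changed sign in 97 of 5266 values. Without the 2 arrays, with or without control day 13 replicate 1 and in the fit of day 15 alone, the log2 differences with the other sign were FOXA2 -0.052, HMOX1 0.081, HSD17B7 0.34, PTGS2 0.23, MYL9 0.079, RARRES2 0.37, JCHAIN -0.55, TUBB4B 0.079, S100A9 0.17 and FGF9 -0.17. Array weights gave HSD17B7 0.054, PTGS2 0.013, RARRES2 0.20, JCHAIN -0.10, TUBB4B 0.011, SDC1 0.054, S100A9 0.090 and FGF9 -0.13. Quantile normalization gave RBP4 -0.013 and FGF9 -0.036, and median centring FGF9 -0.021. The RNA quality covariate gave DEFB1 -0.26, CCDC78 -0.019, MARCH5 0.066, S100A1 -0.061, TPPP3 -0.023, NCOA1 -0.11, MUC1 -0.29, SLA-DRA -0.0099, PDGFRB 0.037, PTGS2 0.021, TWIST2 0.42, TEKT1 -0.29, SPP1 0.17, JCHAIN -0.10, TUBB4B 0.19, XBP1 -0.096, RBP4 -0.093, SDC1 0.53, S100A9 0.76, ALAS2 -0.084, HBB 0.27 and FGF9 -0.49. Leaving out each array in turn gave ranges of GBP1 -0.16 to 1.23, NCOA1 -0.069 to 0.53, SLA-DRA -0.099 to 0.64, PDGFRB -0.41 to 0.048, FGF7 -1.72 to 0.53, PTGS2 -1.04 to 0.19, TWIST2 -1.01 to 0.35, TEAD4 -0.13 to 0.85, RARRES2 -0.38 to 0.14, SMTN -0.44 to 0.063, JCHAIN -0.46 to 1.00, RXRA -0.41 to 0.10, TUBB4B -0.54 to 0.25, XBP1 -0.029 to 0.24, BAIAP2 -0.067 to 0.51, RBP4 -0.070 to 0.55, STC1 -2.15 to 0.73, GATA3 -0.34 to 0.067, SDC1 -0.91 to 0.56, ESR1 -0.14 to 0.37, S100A9 -1.20 to 0.92, ALAS2 -0.053 to 0.28, HBB -0.28 to 0.20 and FGF9 -0.41 to 0.29. The cause was not tested. Of 1078 list medians, 47 moved by more than the SD of the list's mean level over gilts. With 1 array left out, class II presentation ranged from 0.24 to 0.83, interferon gamma from 0.19 to 0.71, type I interferon from 0.26 to 0.61, macrophage markers from 0.28 to 0.83, mucosal genes from 0.32 to 0.75, cell cycle from 0.21 to 0.87 and sterol synthesis from -0.56 to -0.15. With the RNA quality covariate, class II presentation had a median of 0.34, interferon gamma 0.33, macrophage markers 0.23, mucosal genes 0.27 and cytokines and chemokines 0.048. Type I interferon then had a median of 0.48 and cell cycle of 1.09. Dim genes and the small number of arrays limit all of these values.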

Other observations

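The spread between gilts of a treatment was uneven over genes. The within-group SD of the 5785 named genes at day 15 had a median of 0.35 on the log2 scale and a 90th percentile of 0.749, and it was above 1 for 227 genes. The genes that follow are among those of widest spread, a rule set after the data were seen. SERPINB7, a serpin, gave 11.24, 13.01 and 8.59 in the control gilts and 12.84, 6.37 and 12.71 in the estrogen gilts. HSD17B2, which inactivates estradiol, gave 11.80, 11.85 and 8.77 against 11.97, 6.38 and 11.60. In both genes control replicate 3 and estrogen replicate 2 were the lowest of the 6 gilts. They were the lowest also in DKK1, a WNT inhibitor, with 8.11, 10.07 and 4.57 against 7.96, 4.87 and 7.35, and in the fatty acid transporter SLC27A6, with 9.22, 8.59 and 5.29 against 10.60, 6.19 and 9.16. S100G, the calcium-binding calbindin of uterine epithelium, ran the other way, with 4.84, 7.06 and 11.50 against 6.84, 10.33 and 5.12. SERPINA3-2, an acute-phase serpin, gave 6.53, 6.22 and 11.35 against 6.75, 10.32 and 7.29. OXT, oxytocin, was wide within the estrogen gilts, at 11.85, 7.31 and 5.08 against 9.15, 10.89 and 9.72, and estrogen replicate 3, not an array that stands apart, was its lowest.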
